A study of Saccharomyces cerevisiae with 210 samples.

Results

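The pentose phosphate pathway of Saccharomyces cerevisiae was followed through 10 genes, 5 of the oxidative branch (ZWF1, SOL3, SOL4, GND1 and GND2) and 5 of the non-oxidative branch (RKI1, RPE1, TKL1, TKL2 and TAL1). The 10 are enzymes of the pathway by gene name, without the transaldolase paralog NQM1. Each had a probe set that named it and no other gene, among 5656 genes measured in all. The groups were yeast deletion mutants glr1, gpx1, gpx2, grx1, grx2 and yap1 and the wild type, all labelled as strain BY4743, a diploid. Each genotype had 3 cultures given 0.19 mM CHP and 3 Control cultures without it, and every culture was sampled at 0, 3, 6, 12 and 20 min. By its label, the 0 min sample preceded the oxidant. CHP is read here as cumene hydroperoxide, an organic peroxide, since the labels give the abbreviation alone. All cultures, Controls included, were grown in aerated 1 L fermentors and were in mid-exponential phase, so the 210 arrays differ by genotype, arm and time. The mutants lack glutathione reductase (glr1), a glutathione peroxidase-like enzyme (gpx1, gpx2), a glutaredoxin (grx1, grx2) or Yap1, the main transcription factor of the yeast peroxide response (yap1). The labels do not say whether cultures of a mutant came from separate clones, nor how mutants were constructed.

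The oxidative branch turns glucose 6-phosphate into ribulose 5-phosphate and reduces NADP to NADPH on the way, through glucose 6-phosphate dehydrogenase, 6-phosphogluconolactonase and 6-phosphogluconate dehydrogenase. The non-oxidative branch interconverts sugar phosphates reversibly, so that ribulose 5-phosphate can become ribose 5-phosphate for nucleotides or return to glycolysis. NADPH is the electron donor of glutathione reductase and thioredoxin reductase, and yeast lacking ZWF1 is known to be sensitive to peroxides.

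Expression is given as log2 signal on an Affymetrix array, after the authors' RMA summary. A difference of 1 in log2 signal is a doubling. Each gene was measured by its own probe set, so levels are compared between samples of a gene and never between genes. The median signal of an array over all genes lay between 6.61 and 7.08. SRX1, the sulfiredoxin gene and an early target of peroxides, was at 10.99 in wild-type CHP culture 1 already at 0 min, against 6.13 and 6.34 in the other wild-type CHP cultures. That array thus goes against its label of 0 min, since SRX1 was at 11.10 in the same culture at 3 min, and results that compare genotypes before CHP are given with and without it. Each deleted gene was low in its mutant, and the ranges of mutant and wild-type arrays did not overlap. YAP1 lay between 3.01 and 4.28 in the 30 yap1 arrays, against 5.91 to 7.68 in the 30 wild-type arrays. GPX1 gave the weakest check, with 3.87 to 4.51 in gpx1 arrays and 4.85 to 6.21 in wild-type arrays. The arrays labelled gpx2 went against their strain label, since genes that a diploid keeps off were high in them. Of 10 measured haploid and mating-type markers, 6 were higher in all 30 gpx2 arrays than in any wild-type array, and HO, STE3, MFA1 and FUS1 overlapped. STE2, the alpha-factor receptor of MATa cells, had a median of 8.23 in gpx2 (6.29 to 8.80), against 3.37 to 4.01 in wild type, and no array of another genotype passed 4.27. Summed over the 10 markers, log2 signal was 60.40 to 71.18 in gpx2 and 46.22 to 49.51 in wild type. Results on gpx2 therefore concern the cultures labelled gpx2, and the part of ploidy or mating type in them was not tested.

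Some arrays stood apart from the other 2 of their group. The root mean square distance of an array from its group's other arrays had a median of 0.23 in log2 signal over all genes. It was 1.20 for CHP culture 2 of grx2 at 20 min, 0.68 for Control culture 1 of yap1 at 0 min and 0.66 for Control culture 3 of glr1 at 20 min. Several results that rest on these arrays are given below with and without them, and others with all arrays alone.

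In wild type, CHP raised 4 of the 5 oxidative genes by 20 min, while of the 5 non-oxidative genes RKI1 fell and no other passed the test. ZWF1 encodes glucose 6-phosphate dehydrogenase, the entry step of the pathway. Its log2 signal at 20 min was 12.05, 11.93 and 12.04 in CHP cultures, against 11.07, 10.91 and 10.55 in Control cultures. The arms did not overlap, and ZWF1 rose by 1.16 ± 0.17 (SE; 2.24-fold; limma adjusted p = 3.60e-09). SOL4 encodes one of the paired 6-phosphogluconolactonases. It was at 9.47, 8.38 and 8.16 in CHP cultures and at 7.14, 7.10 and 7.35 in Control cultures, with CHP culture 1 the highest. The rise of SOL4 was 1.47 ± 0.30 (2.77-fold; limma adjusted p = 1.75e-05). GND2 encodes the minor isoform of 6-phosphogluconate dehydrogenase. Its signal was 6.96, 7.07 and 6.86 in CHP cultures, against 5.58, 5.75 and 5.55 in Control cultures, so every CHP culture was above every Control culture. GND2 rose by 1.34 ± 0.18 (2.53-fold; limma adjusted p = 8.99e-11).

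The partners of SOL4 and GND2 moved less. GND1, the major 6-phosphogluconate dehydrogenase, gave 12.25, 12.30 and 12.24 in CHP cultures and 11.88, 12.00 and 12.08 in Control cultures. The arms were separate but close, and GND1 rose by 0.28 ± 0.11 (1.21-fold; limma adjusted p = 0.0333), a call kept in 8 of 15 alternatives (adjusted p up to 0.224). SOL3, the other lactonase gene, was at 10.19, 10.65 and 10.52 in CHP cultures and at 10.24, 10.30 and 10.24 in Control cultures. The arms of SOL3 overlapped and its difference of 0.20 ± 0.13 did not pass the test (adjusted p = 0.239). Over all genes in wild type at 20 min, 16.7% were called higher (945) and 21.9% lower (1241), and the median difference was -0.04. Centring each array on its median moved that median to 0.06 and the counts to 1263 higher and 978 lower, and the calls of ZWF1, SOL4, GND2, GND1 and RKI1 held. The oxidative genes had a median of 1.16 and the non-oxidative genes one of -0.06.

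RKI1 encodes ribose 5-phosphate ketol-isomerase, which makes ribose 5-phosphate from ribulose 5-phosphate. It gave 5.33, 5.32 and 5.13 in wild-type CHP cultures at 20 min, against 7.25, 7.01 and 6.52 in Control cultures. Every CHP culture was below every Control culture, and RKI1 fell by 1.67 ± 0.31 on the log2 scale (limma adjusted p = 2.55e-06), to 0.315 times the Control level. RPE1, the epimerase that makes xylulose 5-phosphate, was at 9.71, 9.88 and 9.74 in CHP cultures and at 10.06, 9.73 and 9.71 in Control cultures. Those arms overlapped (difference -0.06 ± 0.14, 95% interval -0.34 to 0.22). TKL1, the major transketolase, gave 10.96, 10.74 and 10.52 in CHP cultures and 11.08, 11.20 and 10.79 in Control cultures. The difference of TKL1 was -0.28 ± 0.17 (95% interval -0.62 to 0.05). TAL1, the transaldolase, was at 10.58, 10.64 and 10.66 in CHP cultures and at 10.37, 10.72 and 10.43 in Control cultures, with overlapping arms and a difference of 0.13 ± 0.18. TKL2, the minor transketolase, gave 6.13, 6.32 and 6.11 in CHP cultures and 5.30, 5.58 and 5.96 in Control cultures. All CHP cultures of TKL2 were above the Controls, but the difference of 0.57 ± 0.26 missed the threshold (adjusted p = 0.0725). It passed in 5 of 14 alternatives, among them quantile normalization (0.71, adjusted p = 0.0246) and the mean of the 3 TKL2 probe sets (0.57, adjusted p = 0.0440). Over the 14 the difference ran from 0.29 to 0.75, with limma adjusted p up to 0.652. At 0 min the mean of TKL2 was already 6.06 in the CHP arm and 5.77 in the Control arm.

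**Figure D1:**
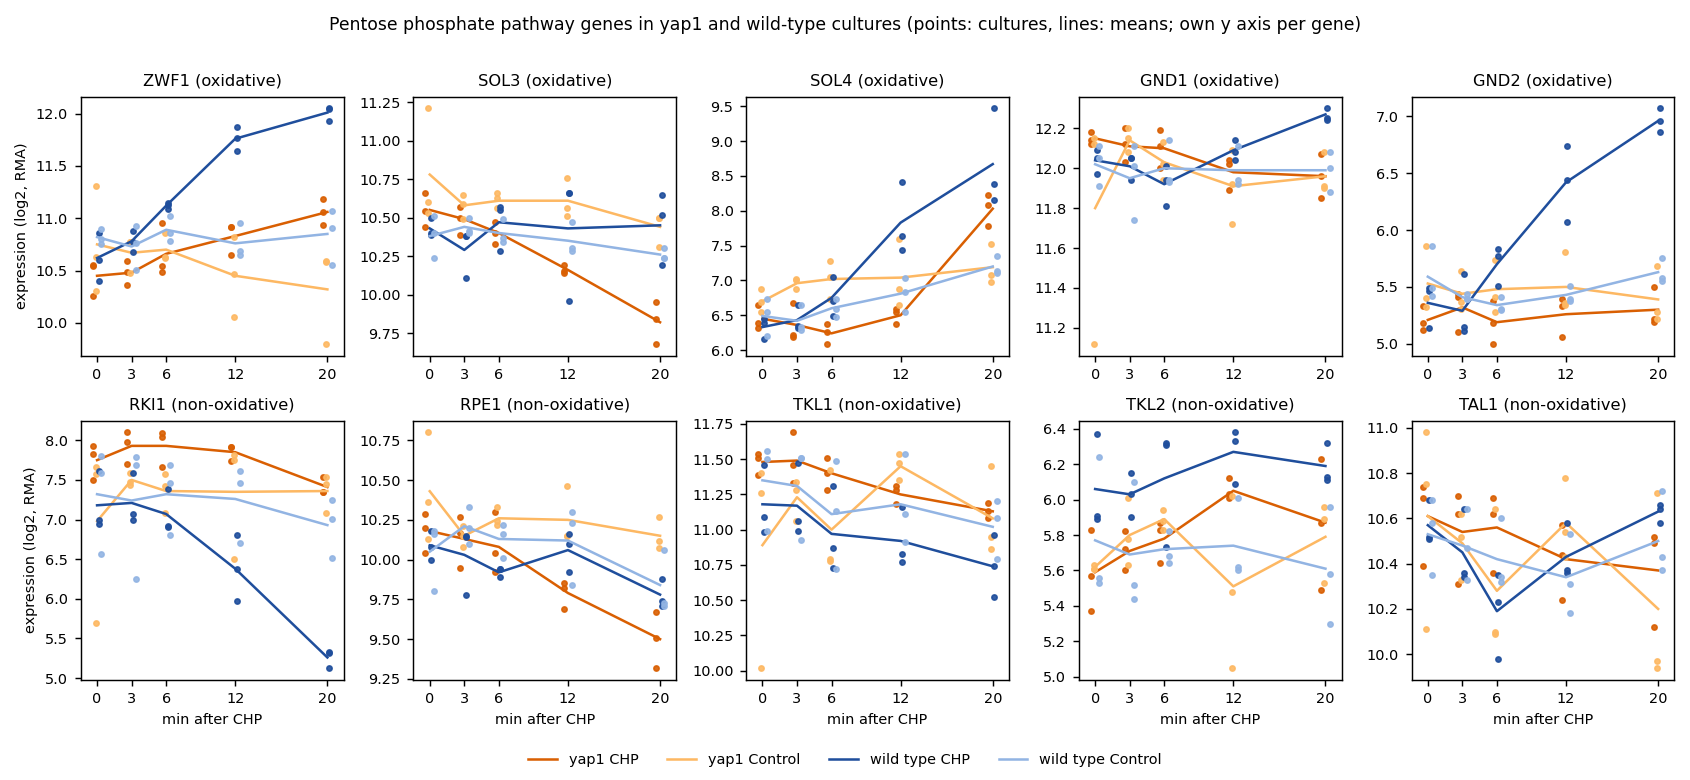
Log2 signal of the 10 genes (y axis, 1 panel per gene) against time after CHP in minutes (x axis) in yap1 and wild type, with points for cultures and lines for means of 3 cultures per arm. ZWF1, SOL4 and GND2 separate between the wild-type arms by 12 min, and RKI1 has a mean of 7.41 in yap1 CHP cultures at 20 min and of 5.26 in wild-type CHP cultures.

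Outside yap1, the first calls among the 10 genes came at 6 or 12 min. Before CHP, at 0 min, limma called 0 of the 10 genes between the arms in glr1, gpx1, gpx2, grx1, grx2 and wild type, and 0 of them had an unadjusted p below 0.05. All genes called at 0 min made up 0% in glr1, gpx1, grx1, grx2 and wild type and 0.194% in gpx2. In yap1, where 6.31% of all genes were called at 0 min, GND1 (0.35 ± 0.11, adjusted p = 0.0399) and TKL1 (0.59 ± 0.17, adjusted p = 0.0281) were higher in the CHP arm. Both calls rest on Control culture 1 of yap1, with GND1 at 11.12 and TKL1 at 10.02 there, and no gene of the array was called without it. At 3 min limma again called 0 of the 10 genes in each of the 7 genotypes, with between 0 and 2 of them at an unadjusted p below 0.05. Called genes over the whole array then made up 1.31% in glr1, 1.2% in both gpx1 and gpx2, 1.1% in grx1, 1.49% in grx2, 0.495% in yap1 and 0.778% in wild type. With shares this low, 0 of 10 does not set the pathway apart from other genes.

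ZWF1 was the first gene of the pathway to pass the test in gpx1, gpx2, grx1 and grx2. In glr1 GND2 passed at the same time, and in wild type ZWF1, SOL4, GND2 and RKI1 first passed together at 12 min. At 6 min ZWF1 had risen in glr1 (0.69 ± 0.17), gpx1 (0.70 ± 0.17), gpx2 (0.60 ± 0.17), grx1 (0.72 ± 0.17) and grx2 (0.88 ± 0.17). In wild type ZWF1 stood at 11.13, 11.15 and 11.09 in CHP cultures and at 11.02, 10.86 and 10.78 in Control cultures, a difference of 0.23 that did not pass. None of the 6 mutant responses differed from the wild-type response for any of the 10 genes at 6 min, with between 0 and 4 of them at an unadjusted p below 0.05 per mutant. The only other call at 6 min was GND2 in glr1 (0.57 ± 0.18, adjusted p = 0.0118), kept in 10 of 14 alternatives. The share of all genes called at 6 min was 23.4% in glr1, 6.79% in gpx1 and 5.68% in gpx2. For grx1 it was 6.31%, for grx2 10.9%, for yap1 14.2% and for wild type 12.7%.

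At 12 min ZWF1 and SOL4 had risen in the 6 genotypes that carry YAP1, by 1.00 to 1.41 and by 0.92 to 2.08. In wild type ZWF1 was at 11.87, 11.77 and 11.64 in CHP cultures, against 10.95, 10.65 and 10.69 in Control cultures. SOL4 was at 8.42, 7.64 and 7.43 in wild-type CHP cultures and at 6.84, 6.55 and 7.03 in Control cultures. Neither gene's arms overlapped at that time. GND2 passed the test at 12 min in glr1 (1.29 ± 0.18), gpx1 (0.58 ± 0.18) and wild type (0.99 ± 0.18), and GND1 passed in grx2 (0.36 ± 0.11). RKI1 had fallen in glr1 (-0.74 ± 0.31), grx2 (-0.82 ± 0.31) and wild type (-0.88 ± 0.31; adjusted p = 0.0205). The call of RKI1 was kept in 8 of 15 alternatives in glr1, 9 of 15 in grx2 and 8 of 15 in wild type. The wild-type arms of RKI1 still overlapped at 12 min, since CHP culture 1 was at 6.80 and Control culture 3 at 6.71. At 12 min 40% of all genes were called in glr1, 40.5% in grx2, 30.8% in gpx1 and 32.1% in gpx2. For grx1 the share was 30.9%, for yap1 29.4% and for wild type 30.2%.

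**Figure D2:**
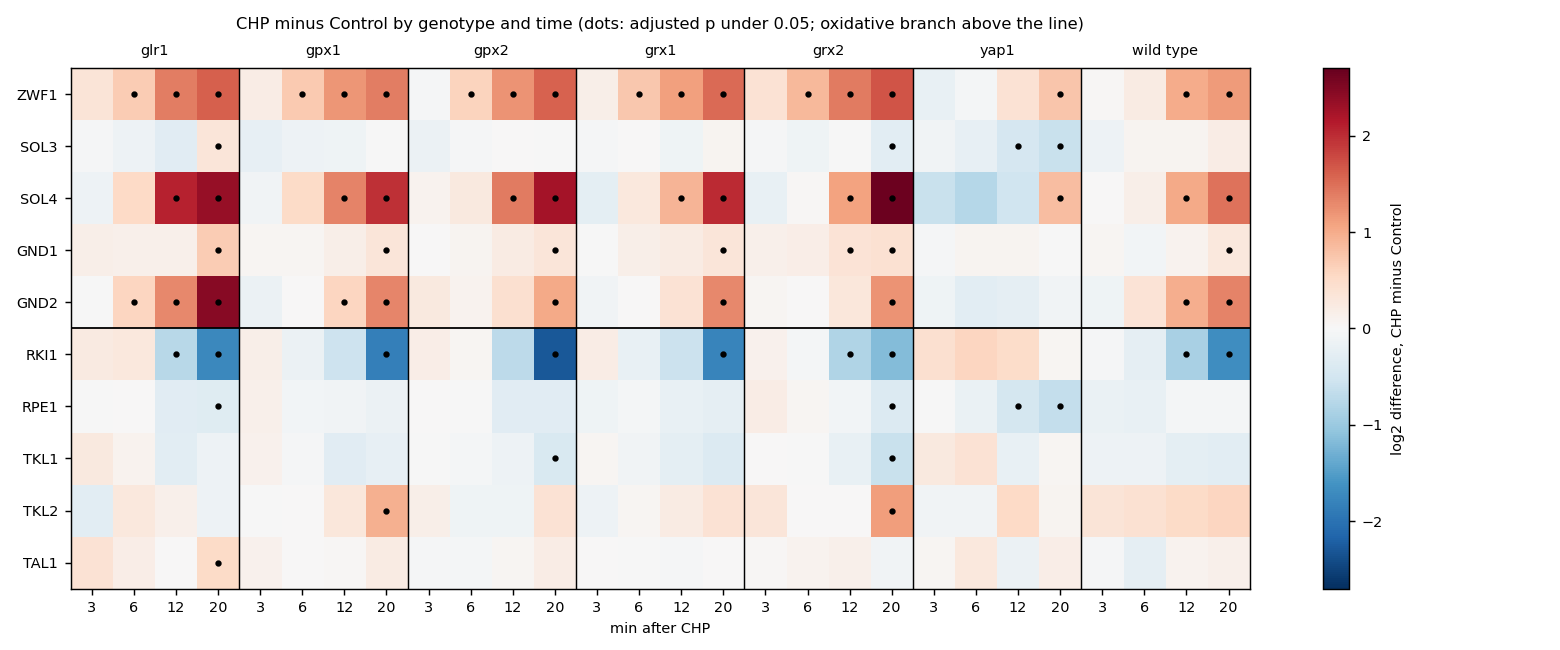
Response to CHP, as CHP minus Control in log2 signal (colour), for the 10 genes (rows, oxidative branch above) in 7 genotypes at 3, 6, 12 and 20 min (columns), with a dot where the limma adjusted p was under 0.05. At 20 min ZWF1 and SOL4 carry a dot as rises in every genotype, and GND2 and RKI1 carry one in every genotype other than yap1.

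At 20 min 4 oxidative genes and RKI1 moved in the same direction in the 6 genotypes that carry YAP1. In these ZWF1 rose by 1.16 to 1.69, SOL4 by 1.47 to 2.64, GND2 by 1.02 to 2.46 and GND1 by 0.28 to 0.69, and RKI1 fell, its differences running from -2.28 to -1.18. The RKI1 difference of -1.18 was that of grx2, and it was -2.12 without CHP culture 2 of grx2. ZWF1, SOL4, GND2, GND1 and RKI1 each passed the test in all 6. SOL3, RPE1, TKL1, TKL2 and TAL1 passed it in a minority of those genotypes, in both directions for SOL3. Among all genes, those called higher and lower were 29.3% and 26.7% in glr1, then 22.8% and 26.3% in gpx1 and 24% and 24.1% in gpx2. They were 22.7% and 26% in grx1, then 26.1% and 39.3% in grx2 and 18.2% and 26.3% in yap1. Median centring gave 1926 higher and 1759 lower genes in grx2 (1475 and 2222 as deposited; 1754 and 1959 with quantile normalization) and 1280 and 1222 in yap1 (1028 and 1487 as deposited).

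The response of yap1, which lacks the transcription factor, differed in 5 of the 10 genes at 12 min and in 4 at 20 min, mostly by weaker or opposite changes. Beside this, 13.1% of all genes differed upward and 9.39% downward at 12 min, and 11.5% and 11.7% at 20 min. Fewer of the 10 were called with the 0 min level subtracted, as given below. GND2 and RKI1 did not pass the test in yap1 at any time. GND2 was at 5.19, 5.50 and 5.22 in yap1 CHP cultures at 20 min and at 5.28, 5.22 and 5.68 in yap1 Control cultures, so the arms overlapped (-0.09 ± 0.18). That response was 1.43 ± 0.25 below the wild-type one, written as a difference of -1.43 (limma adjusted p = 2.25e-06). At 12 min the difference of GND2 was -1.24 ± 0.25 (adjusted p = 4.31e-05). GND2 kept this call at both times in every alternative that measured it, including the subtraction of each culture arm's 0 min level.

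RKI1 was at 7.35, 7.54 and 7.35 in yap1 CHP cultures at 20 min, against 7.54, 7.45 and 7.08 in yap1 Control cultures. The yap1 arms overlapped (0.06 ± 0.31), and the response lay 1.73 ± 0.44 above that of wild type (limma adjusted p = 0.0013). At 12 min the difference of RKI1 was 1.39 ± 0.44 (adjusted p = 0.0128), a call kept in 17 of 22 alternatives. With the 0 min level subtracted, the difference of RKI1 was 0.48 at 12 min (adjusted p = 0.75). At 20 min it was then 0.82 (adjusted p = 0.452), and 1.46 (adjusted p = 0.116) with Control culture 1 of yap1 at 0 min also left out. In that array RKI1 stood at 5.70, against 7.50 to 7.93 in the other yap1 cultures before CHP.

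SOL4 had passed the test in yap1 at 20 min but not at 12 min. At 12 min it was at 6.54, 6.38 and 6.59 in yap1 CHP cultures and at 6.65, 6.87 and 7.59 in yap1 Control cultures. Its response at 12 min was -0.53 ± 0.30 in yap1, against 1.02 ± 0.30 in wild type, a difference of -1.56 ± 0.42 (limma adjusted p = 0.00311). With the 0 min level subtracted that difference was -1.48 and missed the threshold (adjusted p = 0.113), and it was -1.40 (adjusted p = 0.171) with Control culture 1 of yap1 at 0 min also left out. At 20 min SOL4 had risen in yap1 too, with 8.09, 8.22 and 7.78 in CHP cultures and 6.97, 7.08 and 7.52 in Control cultures (0.84 ± 0.30, adjusted p = 0.0158, kept in 12 of 15 alternatives). The difference from wild type was then -0.63 ± 0.42 and did not pass (95% interval -1.47 to 0.21). The difference of ZWF1 from wild type was -0.62 ± 0.24 at 12 min (adjusted p = 0.0497), and this call was kept in only 10 of 22 alternatives (adjusted p up to 0.423). At 20 min ZWF1 was at 11.06, 10.94 and 11.18 in yap1 CHP cultures, against 10.58, 10.59 and 9.80 in yap1 Control cultures. This was a rise of 0.74 ± 0.17 (adjusted p = 1.54e-04), and its difference from wild type of -0.43 ± 0.24 did not pass (95% interval -0.90 to 0.05).

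SOL3 and RPE1 fell in yap1, and their responses differed from those of wild type at 20 min. SOL3 was at 9.68, 9.95 and 9.84 in yap1 CHP cultures at 20 min and at 10.50, 10.31 and 10.50 in yap1 Control cultures. It fell by 0.61 ± 0.13 in yap1 (limma adjusted p = 2.21e-05), and the difference from the wild-type response was -0.81 ± 0.18 (adjusted p = 2.17e-04). At 12 min SOL3 differed by -0.53 ± 0.18 (adjusted p = 0.0223), a call kept in 15 of 22 alternatives (adjusted p up to 0.672). RPE1 was at 9.32, 9.67 and 9.51 in yap1 CHP cultures at 20 min and at 10.12, 10.27 and 10.07 in yap1 Control cultures. Neither gene's yap1 arms overlapped, and RPE1 fell by 0.65 ± 0.14 (adjusted p = 5.03e-05), with a difference from wild type of -0.59 ± 0.20 (adjusted p = 0.0201, kept in 15 of 22 alternatives). With the 0 min level subtracted, the differences at 20 min were -0.53 for SOL3 (adjusted p = 0.173) and -0.30 for RPE1 (adjusted p = 0.568). Over all genes the yap1 response differed from the wild-type one upward in 13.1% and downward in 9.39% at 12 min, and in 11.5% and 11.7% at 20 min. With median centring the 12 min counts were 579 up and 767 down, against 739 and 531 as deposited. In GND1, TKL1, TKL2 and TAL1 no difference was called at either time.

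In glr1, which lacks the enzyme that spends NADPH on oxidised glutathione, GND2 rose more than in wild type. GND2 was at 7.68, 8.23 and 8.30 in glr1 CHP cultures at 20 min, against 5.18, 6.06 and 5.60 in glr1 Control cultures. This was a rise of 2.46 ± 0.18 (5.48-fold), and it exceeded the wild-type rise by 1.12 ± 0.25 (limma adjusted p = 0.0023). The difference of GND2 was 0.90 with the 0 min level subtracted (adjusted p = 0.386), and the other alternatives kept the call. SOL4 in glr1 was at 9.86, 10.34 and 9.92 in CHP cultures and at 6.89, 6.84 and 9.32 in Control cultures. Control culture 3 thus lay close to the CHP cultures, and SOL4 rose by 2.36 ± 0.30, or by 3.18 without that culture. The difference of SOL4 from wild type was 0.89 (adjusted p = 0.221) and became 1.71 (adjusted p = 0.00216) without it. In glr1 8 of the 10 genes were called at 20 min, beside 55.9% of all genes. Among them SOL3, RPE1 and TAL1 kept their calls in 10, 11 and 12 of 16 alternatives. Across all genes 5.07% differed in response between glr1 and wild type at 20 min.

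In grx2, SOL4 was at 8.44, 8.44 and 8.84 in CHP cultures at 20 min and at 5.92, 6.67 and 5.19 in Control cultures. The rise of 2.64 ± 0.30 was 1.17 ± 0.42 above the wild-type rise (limma adjusted p = 0.0284), a call kept in 14 of 21 alternatives (adjusted p up to 0.164). Over these the difference ran from 0.8 to 1.57. Control culture 3, the lowest in SOL4 at 5.19, also stood apart from its group, with a root mean square distance of 0.61. SOL3 was at 10.06, 9.46 and 10.35 in grx2 CHP cultures, against 10.28, 10.24 and 10.21 in grx2 Control cultures. Its difference from wild type was -0.48 ± 0.18 (adjusted p = 0.0361), and -0.23 without CHP culture 2, no longer past the threshold. The same CHP culture 2 had RKI1 at 8.36, against 5.59 and 5.47 in the other CHP cultures of grx2, and TKL2 at 7.96, against 5.97 and 5.79. The TKL2 probe sets not used here gave 6.33 in it, against 5.64 and 5.42, and 3.96, against 4.59 and 4.46. The probe sets of TKL2 thus did not move alike in that array. In grx2 9 of the 10 genes were called at 20 min, beside 65.4% of all genes. Without that culture 5 were called, beside 56.8% of all genes, namely ZWF1 (1.82), SOL4 (2.71), GND1 (0.49), GND2 (1.46) and RKI1 (-2.12). At 20 min the grx2 response differed from the wild-type one in 28% of all genes, 553 upward and 1028 downward. The median response of all genes in grx2 was -0.14. Without CHP culture 2 of grx2, 407 genes differed upward and 465 downward, and the median response was -0.03.

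The responses of gpx1, gpx2 and grx1 at 20 min showed no called difference from wild type in any of the 10 genes (limma), with 0 of them at an unadjusted p below 0.05 in each. Over all genes limma called 0.177% in gpx1, 0.283% in gpx2 and 0.76% in grx1. GND2 at 20 min was at 5.99, 6.52 and 6.97 in gpx1 CHP cultures, against 5.14, 5.12 and 5.30 in gpx1 Control cultures. RKI1 in gpx2 was at 5.12, 4.95 and 5.40 in CHP cultures, against 7.41, 7.52 and 7.38 in Control cultures, and its difference of -2.28 ± 0.31 was the lowest of the 7 genotypes. TKL2 was called in gpx1 (0.97 ± 0.26, adjusted p = 0.00107), where CHP culture 2 stood at 7.62, against 5.83 and 5.83 in the other gpx1 CHP cultures. Without that culture the TKL2 difference was 0.37 and not called. TKL1 fell in gpx2 (-0.41 ± 0.17, adjusted p = 0.0363), a call kept in 8 of 15 alternatives (adjusted p up to 0.21).

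The branches were compared within each array, as the mean log2 signal of the 5 oxidative genes minus that of the 5 non-oxidative genes. Only its change between arms carries information, since probe sets differ in brightness. No p is given for this average over chosen genes. At 20 min the branch difference moved toward the oxidative genes by 1.86 for glr1, 1.20 for gpx1, 1.51 for gpx2, 1.45 for grx1 and 1.36 for grx2, and the arms did not overlap in these mutants. In yap1 the branch difference was 0.35, 0.37 and 0.40 in CHP cultures, against 0.16, -0.03 and 0.30 in Control cultures, a change of 0.23. In wild type it was 1.64, 1.49 and 1.53 in CHP cultures, against 0.37, 0.36 and 0.47 in Control cultures, a change of 1.15. CHP culture 2 of grx2, with 0.24, was far below the other grx2 CHP cultures, at 1.25 and 1.49, and without it the change was 1.74. Without Control culture 3 of glr1, the glr1 change was 2.07. When SOL4, GND2 and TKL2 were left out, the change was 1.30 in glr1, 1.33 in gpx2, 1.23 in grx1, 0.13 in yap1 and 1.02 in wild type.

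**Figure D3:**
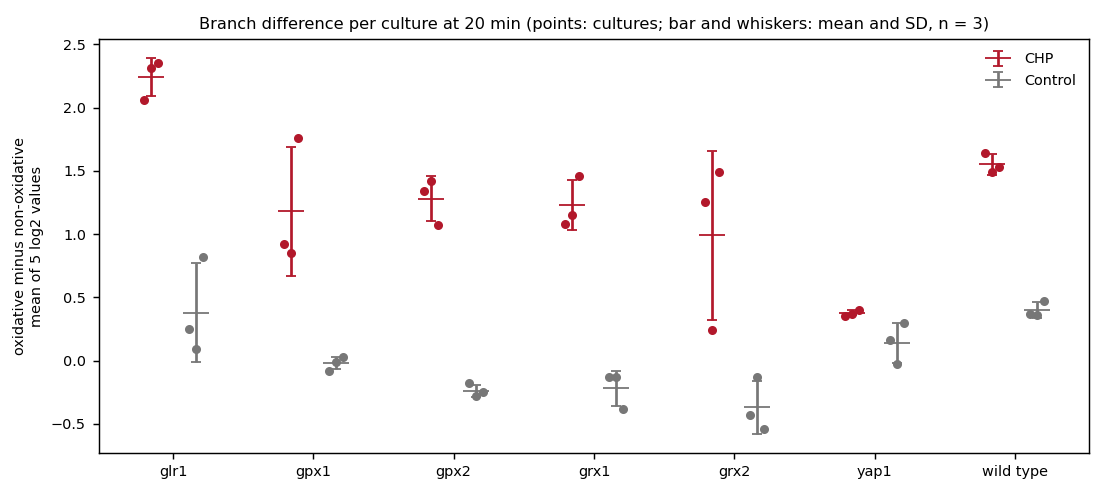
Mean log2 signal of the oxidative genes minus that of the non-oxidative genes (y axis) in each culture at 20 min, with CHP left of Control in each of 7 genotypes; points are cultures, bars are means with SD (n = 3). CHP cultures lie above the Controls in every genotype. The gap is 0.23 for yap1 and lies between 1.15 and 1.86 for the other genotypes.

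The 10 genes hold 3 pairs that encode the same activity, and the difference within each pair was taken on every array. NQM1, a transaldolase paralog of TAL1, lies outside the 10 genes and was not paired here. Between the arms at 20 min, SOL4 minus SOL3 shifted toward SOL4 by 2.93 in grx2, 2.26 in gpx2, 1.99 in gpx1, 1.94 in grx1 and 1.45 in yap1, with separate arms. In glr1 the shift was 2.03 and the arms overlapped, since Control culture 3 was at -0.34 and the other Control cultures at -3.50 and -3.63. Without that culture the glr1 shift was 3.11. In wild type it was -0.71, -2.27 and -2.36 in CHP cultures and -3.09, -3.20 and -2.89 in Control cultures, a shift of 1.28. In yap1 the shift came with a fall of SOL3 as well as a rise of SOL4. GND2 minus GND1 shifted toward GND2 by 1.77 for glr1, 0.99 for gpx1, 0.70 for gpx2, 0.97 for grx1 and 0.81 for grx2, and by -0.09 for yap1. Without Control culture 3 of glr1 the shift of this pair was 1.94 there, and without CHP culture 2 of grx2 it was 0.97 there. With all arrays, the arms of GND2 minus GND1 overlapped in yap1 and in grx2. In wild type it was -5.29, -5.24 and -5.38 in CHP cultures and -6.31, -6.25 and -6.53 in Control cultures, a shift of 1.06. TKL2 minus TKL1 shifted by -0.01 in glr1 (-0.44 without Control culture 3) and by 0.02 in yap1, with arms that overlapped in both. The shift of this pair toward TKL2 was 0.80 for gpx2 and 0.74 for grx1, with separate arms, and 0.86 for wild type, where CHP culture 1 and Control culture 3 were both at -4.83. It was 1.19 for gpx1 and 1.74 for grx2, where the arms overlapped, but 0.58 for gpx1 and 0.85 for grx2 without CHP culture 2 of each.

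**Figure D4:**
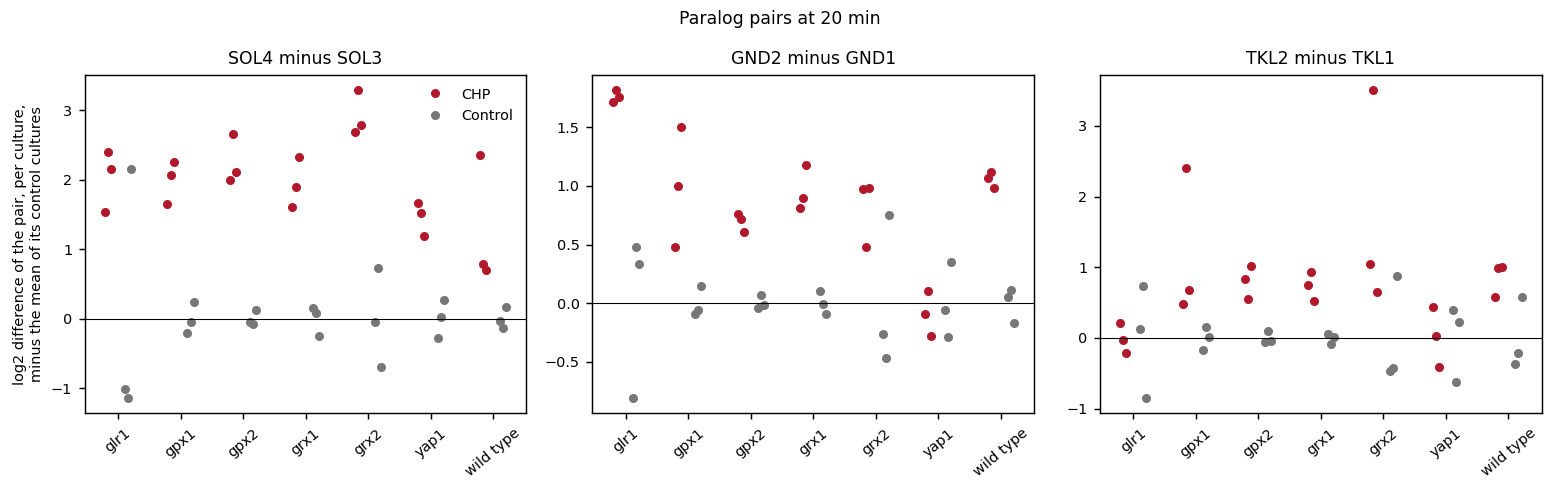
Within-array difference of log2 signal between paired genes (y axis, SOL4 minus SOL3, GND2 minus GND1 and TKL2 minus TKL1, each less the mean of its own Control cultures) in each culture at 20 min, CHP left of Control, for 7 genotypes. The GND shift is 1.77 in glr1 and -0.09 in yap1, while the SOL shift is between 1.28 and 2.93 over the 7 genotypes. In glr1 the arms of the SOL pair overlap through Control culture 3, without which that shift is 3.11.

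Before CHP, TKL1 and TAL1, which carry the transketolase and transaldolase steps, were higher in gpx1, gpx2, grx1 and grx2 than in wild type. TKL1 at 0 min ranged from 11.65 to 11.73 in gpx1 (6 cultures), from 11.65 to 11.81 in grx1 and from 11.63 to 11.80 in grx2, against 10.98 to 11.56 in wild type. These did not overlap with wild type, and the differences were 0.42 ± 0.12 in gpx1 (limma adjusted p = 0.00537), 0.47 ± 0.12 in grx1 (adjusted p = 0.00332) and 0.44 ± 0.12 in grx2 (adjusted p = 0.00373). In gpx2 TKL1 was at 11.55 to 11.64, a difference of 0.33 ± 0.12 (adjusted p = 0.0413) that 10 alternatives lost. TAL1 ran between 10.78 and 11.06 for gpx1, 10.83 and 11.03 for gpx2, 10.95 and 11.11 for grx1 and 10.85 and 11.00 for grx2, against 10.35 to 10.68 in wild type. None of these ranges reached that of wild type, and the differences of TAL1 lay between 0.36 and 0.47. The call of TAL1 was kept in 20 of 21 alternatives in gpx1, 13 in gpx2 (adjusted p up to 0.137), 21 in grx1 and 18 in grx2. Without the wild-type CHP culture 1 array, TKL1 and TAL1 were still called higher in these 4 mutants. The share of all genes called at 0 min was 29% for gpx1, 17.6% for gpx2, 21.5% for grx1 and 29.1% for grx2. It was 0.0707% in glr1, where 0 of the 10 genes were called and 0 had an unadjusted p below 0.05, and 12.2% in yap1. The 6 wild-type cultures serve as comparison for every mutant. The labels name no batch, and genotype and a preparation shared by the 4 mutants cannot be told apart.

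Other differences before CHP were fewer. RKI1 was higher in gpx1, at 7.65 to 8.11 against 6.56 to 7.80 in wild type (0.65 ± 0.22, adjusted p = 0.0192, kept in 17 of 21 alternatives). GND2 was lower in gpx1 (-0.32 ± 0.13, adjusted p = 0.0469), a call kept in 8 of 20 alternatives, and in grx1 (-0.36 ± 0.13, adjusted p = 0.031), kept in 11 of 20. In grx2 ZWF1 (-0.35 ± 0.12, adjusted p = 0.0216) and TKL2 (-0.52 ± 0.19, adjusted p = 0.0262) were lower than in wild type, and 16 of 21 and 15 of 20 alternatives kept these calls. SOL3 was higher in yap1 (0.26 ± 0.09, adjusted p = 0.0451), a call lost without Control culture 1 of yap1, whose SOL3 signal was 11.21. Without the wild-type CHP culture 1 array the calls of GND2 in gpx1 and grx1, of ZWF1 in grx2 and of SOL3 in yap1 were lost.

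**Figure D5:**
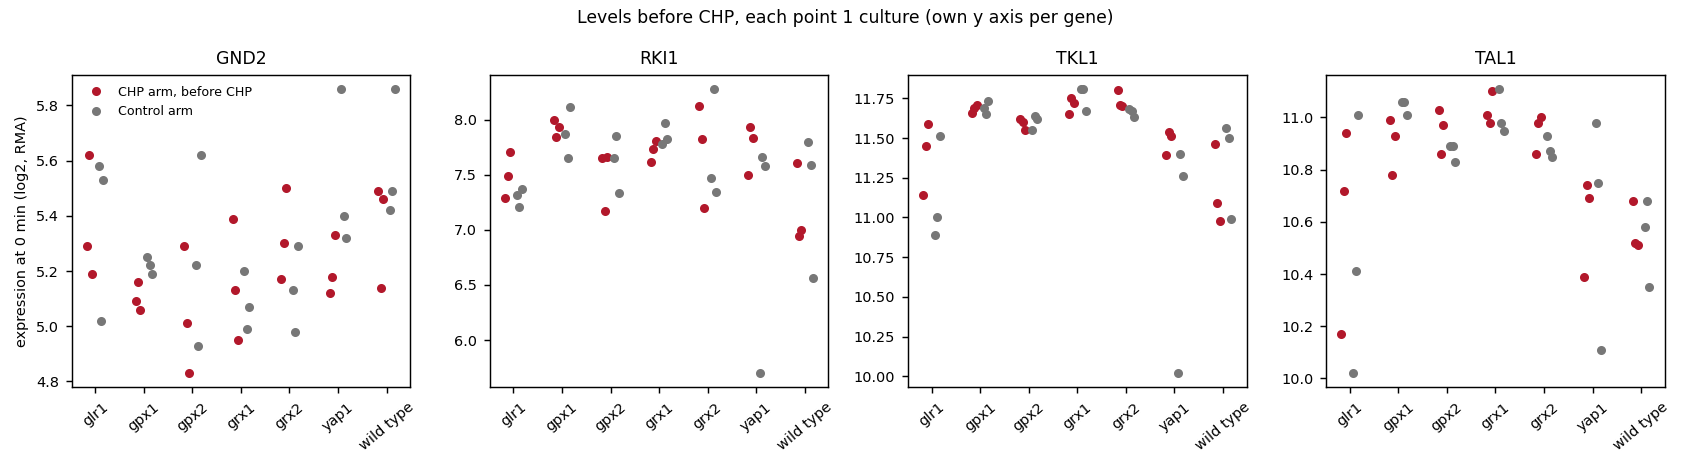
Log2 signal of GND2, RKI1, TKL1 and TAL1 (y axis, 1 panel per gene) in the 6 cultures of each genotype at 0 min, mutants left of wild type. Points are cultures, coloured by arm. TAL1 in gpx1, gpx2, grx1 and grx2 lies above the wild-type range of 10.35 to 10.68, and 1 yap1 culture has RKI1 at 5.70 and TKL1 at 10.02.

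Untreated cultures changed little. Between 20 and 0 min of Control cultures, limma called 0 of the 10 genes in gpx1, gpx2, grx1, grx2, yap1 and wild type, with between 0 and 3 of them at an unadjusted p below 0.05. The shares of all genes called were 0% for gpx1, grx1 and wild type, 0.0177% for gpx2, 1.26% for grx2 and 3.87% for yap1. In glr1, with 5.45% of all genes called, SOL4 rose by 1.31 ± 0.30 and GND1 fell by 0.50 ± 0.11 on the log2 scale. Both rest on Control culture 3 at 20 min, with SOL4 at 9.32 and GND1 at 11.16, and neither was called without it.

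Genes next to the pathway were counted from a list of 30, all measured, at 20 min. Of these 8 rose and 5 fell in yap1, where 18.2% of all genes were called higher and 26.3% lower. In wild type 6 rose and 9 fell, where 16.7% of all genes were called higher and 21.9% lower. Among 4 related enzymes, NQM1, a transaldolase paralog of TAL1, was at 6.29, 5.99 and 6.06 in wild-type CHP cultures, against 4.66, 4.55 and 5.03 in Control cultures. It rose by 1.06 ± 0.18 in yap1 (limma adjusted p = 2.15e-07) and by 1.37 ± 0.18 in wild type (adjusted p = 5.35e-11). Of the 5 genes for entry, hexokinases and phosphoglucose isomerase, HXK2, the only gene called there and named after its value was seen, rose by 0.58 in yap1, and 0 were called in wild type. Of 7 genes for other NADPH and NADP supply, 0 rose and 1 fell in wild type, IDP2, the cytosolic NADP isocitrate dehydrogenase (-0.61 ± 0.21, adjusted p = 0.0137), also named after its value was seen. Of 10 genes that use pentose or erythrose phosphates, 4 rose and 5 fell in wild type. The 5 that fell were PRS1, PRS2, PRS3, PRS4 and PRS5, subunits of the ribose-phosphate pyrophosphokinase that uses the product of RKI1, named after their values were seen. PRS1 was the 1 of them that passed in yap1 (-0.42 ± 0.11), and the wild-type differences of the 5 ran from -0.82 to -0.45. The difference between yap1 and wild type passed for PRS2 (0.48), PRS3 (0.80) and PRS4 (0.80).

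In the same use group RBK1, ribokinase, responded less in yap1 than in wild type (-1.01 ± 0.30, adjusted p = 0.00661). ARO3, which spends erythrose 4-phosphate on aromatic amino acids, rose by 1.13 ± 0.15 in yap1 (adjusted p = 6.08e-11). It was at 0.43 ± 0.15 in wild type, and the difference was 0.71 ± 0.21 (adjusted p = 0.0076). Of the 4 transcription factors, 1 rose and 2 fell in yap1, and 1 rose and 2 fell in wild type. STB5, a regulator of the pathway's genes, fell by 1.01 ± 0.13 on the log2 scale in yap1 (adjusted p = 9.78e-11) and by 0.42 ± 0.13 in wild type (adjusted p = 0.00738). MSN4, a general stress regulator, fell by 2.00 ± 0.15 in yap1 and by 0.81 ± 0.15 in wild type, a difference of -1.19 ± 0.21 (adjusted p = 1.41e-06). MSN2, named after its value was seen, rose by 0.76 ± 0.14 in yap1 (limma adjusted p = 2.41e-06), and its difference was 0.66 ± 0.20 (adjusted p = 0.00846). YAP1 rose by 0.92 ± 0.19 in wild type (adjusted p = 1.68e-05). Its difference of -1.03 ± 0.26 (adjusted p = 0.00137) compares wild type with a mutant that lacks the gene.

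Across the 28 responses (7 genotypes at 4 times after CHP), ZWF1 and SOL4 had a Pearson r of 0.93, SOL4 and GND2 one of 0.87 and RKI1 and TKL1 one of 0.74. These points share cultures and the course of time, so the values are a description. The genes most like SOL4 over all others measured were GAD1 (r = 0.99), DCS2 (0.99) and TFS1 (0.98). Those most like GND2 were YKL107W (0.96), HAB1 (0.95) and RTN2 (0.94). RKI1 was closest to HAS1, KRE33 and RRP5, each at 0.96, which encode proteins of ribosome assembly. At 20 min RKI1 responded by 0.06 in yap1 and by -1.67 in wild type. HAS1 responded by -0.25 in yap1 and -0.92 in wild type, KRE33 by -0.25 and -1.32, and RRP5 by 0.04 and -1.81. The likeness was picked on these same responses, so a match in them follows from the choice. TKL2 and TAL1 had looser partners, SPO19 at 0.81 and GET3 at 0.88.

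SOL4 and GND2 share a chromosome, and so do their partners SOL3 and GND1. In the RefSeq annotation of assembly R64 SOL4 and GND2 are on chromosome VII with 8 genes between them, ENO1 included. SOL3 and GND1 are on chromosome VIII with 21 genes between them, ENO2 and STB5 included. In wild type at 20 min, 3 of the 7 measured genes between SOL4 and GND2 were called higher and 1 lower. Of the 18 measured between SOL3 and GND1, 2 were called higher and 7 lower. The shares over all genes in wild type were 16.7% higher and 21.9% lower.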

How the data were processed

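Per the labels' protocols, RNA came from batch fermentor cultures by hot phenol extraction and was hybridised, as biotin-labelled cRNA, to Affymetrix Yeast Genome S98 microarrays. Values as deposited are log2 signals that the authors made with RMA, per the submitters' processing notes; version and settings were not given in the sources used here. Of 9335 probe sets, 6504 name 1 gene, 328 several and 2443 none. Where several named a gene, the one with the highest mean was kept, which left 5656 genes. The 210 arrays are repeated samples of the cultures. Each response compares 3 CHP cultures with 3 Control cultures, and this number of cultures limits the precision.

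Differences were fitted with limma 3.58.1 in R 4.3.3 over 70 group means (140 residual degrees of freedom), with Benjamini-Hochberg adjustment over all genes and a threshold of 0.05. A response is CHP minus Control at 1 time. A difference of response is mutant minus wild type. All mutants share the wild-type cultures. Replicates are labelled as biological, and the replicate is the culture. The 5 samples of a culture correlated at 0.264. Same-number deviations of the arms correlated between -0.44 and 0.70, and the means for other numbers ran from -0.51 to 0.09. These values do not settle whether replicate numbers pair the arms, and the main fit used no pairing.

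The rule for named genes was all 10 pathway genes, plus some of the list of 30. Those were the genes called with a change of at least 1 in log2 signal. HXK2, IDP2, MSN2 and PRS1 to PRS5 fall outside the rule. The members and lists were chosen with earlier results of these data known. On simulated data for wild type at 20 min, over 5656 genes, the fit called 37% of the genes given a change of 0.5. It called 94% of those given a change of 1, with 9.7% of calls false. The simulation changed far fewer genes than the real comparison called. Its noise was independent between arrays, without the correlation within cultures or the arrays that stood apart. These rates need not hold for the data. Alternatives covered scaling, blocks, probe set choice, dim genes, 0 min subtraction and left-out arrays. Those that leave out Control culture 1 of yap1, Control culture 3 of glr1 or CHP culture 2 of gpx1, and branch or pair differences without such an array, were chosen after seeing the data. Gene order came from the RefSeq annotation of assembly R64. Promoter and protein sequences were not used here.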

Additional observations from a re-analysis of the deposited data

Results flagged for a closer look

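Over 70 sets of 6 cultures at 0 min (10 genes in 7 genotypes), 6 held a culture far from the others. Chance alone gives about 1 in 20 for independent sets. The 10 genes of a genotype share the same arrays, so the sets are not independent and the 6 are not weighed against that rate. In 5 of the 6 the far culture was Control culture 1 of yap1. There ZWF1 was at 11.31 (others 10.26 to 10.63), SOL3 at 11.21 (10.44 to 10.66), GND1 at 11.12 (12.12 to 12.18), RKI1 at 5.70 (7.50 to 7.93) and TKL1 at 10.02 (11.26 to 11.54). In the sixth, ZWF1 was at 10.39 in Control culture 3 of gpx2 (others 10.56 to 10.65).

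Differences of a mutant's response from that of wild type were called for 12 gene and time combinations by the limma interaction term. In yap1 at 12 min these were ZWF1 (-0.62), SOL3 (-0.53), SOL4 (-1.56), GND2 (-1.24) and RKI1 (1.39). In yap1 at 20 min they were SOL3 (-0.81), GND2 (-1.43), RKI1 (1.73) and RPE1 (-0.59). In glr1 at 20 min GND2 differed by 1.12. In grx2 at 20 min SOL4 differed by 1.17 and SOL3 by -0.48, the last lost without CHP culture 2 of grx2.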

How the results depend on the processing

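Among single-gene results over all alternatives, 5562 kept their side of the threshold, 113 gained a call and 223 lost one. Reversals of direction among results called in either fit numbered 0. Direction was not counted for results called in neither fit, and some of these changed sign. The counts of the 10 genes called moved by more than 1.5 times as follows; the cause was not tested except where fewer arrays or genes were used. With genes under the median level left out, which drops SOL4, GND2 and TKL2, the 20 min counts were 3 for gpx1, 3 for grx1 and 3 for wild type (6, 5 and 5 with all genes), the 12 min count was 2 for wild type (4), and that of the yap1 difference at 12 min was 3 (5). With the 0 min level subtracted, glr1 had 5 (8) and yap1 2 (4) at 20 min, and the yap1 difference had 1 at 12 min and 2 at 20 min, the same without Control culture 1 of yap1. With only the compared genotypes in the fit, glr1 had 5 and grx1 8 at 20 min, and before CHP gpx1 had 7 (4), gpx2 4 (2), grx1 6 (3), grx2 2 (4) and yap1 0 (1). Before CHP, quantile normalization gave 1 for gpx2, and yap1 had 0 with quantile normalization, with median centring, without wild-type CHP culture 1 and without yap1 Control culture 1. Leaving out each replicate in turn gave 5 to 9 for grx2 at 20 min and 2 to 5 for the yap1 difference at 12 min, and before CHP 1 to 5 for gpx1, 0 to 3 for gpx2, 2 to 5 for grx2 and 0 to 2 for yap1. The branch change without SOL4, GND2 and TKL2 moved by more than 1 SD to 1.30 in glr1, 1.33 in gpx2, 1.23 in grx1 and 1.02 in wild type. With a replicate block, whose pairing of the samples was not settled, the 20 min counts were 7 for gpx2 and 6 for wild type. Over all genes of wild type 1068 were then called higher and 1387 lower (945 and 1241 without the block). Depth cannot be read from arrays, and SOL4, GND2 and TKL2 lay under the median level, where signal over background limits small differences.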

Other observations

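The haploid and mating-type signal of the cultures labelled gpx2 held at every time and in both arms. MFA2, a gene for the a-factor pheromone, had a median of 12.43 in the 30 gpx2 arrays (10.03 to 12.81), against 7.01 in the 30 wild-type arrays (6.44 to 7.60). ZWF1, SOL4, GND1, GND2 and RKI1 were called at 20 min in the cultures labelled gpx2 in the same direction as in wild type.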
